A study of Homo sapiens with 6 samples.

Results

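The STAT factors and JAK kinases are the core of the signaling route that carries cytokine messages from the cell surface to the nucleus. They were taken here as 9 genes, matched by symbol in the deposited count table of 22989 genes: Stat2, Stat3, Stat4, Stat5a, Stat5b, Stat6, Jak1, Jak2 and Tyk2. LINC00115 KD libraries carried 4.31-fold more Stat2 than WT libraries, and 59.3% less Tyk2. Jak1, Jak2, Stat3, Stat5a and Stat6 were lower by smaller amounts, Stat5b was higher, and Stat4 was at the edge of detection.

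A cytokine receptor has no kinase of its own. The JAK bound to its tail phosphorylates the receptor and then a STAT, and the phosphorylated STAT pairs with another and binds DNA. JAK1 and TYK2 serve the type I interferon receptor, where STAT2 joins IRF9 in the complex ISGF3, which binds interferon-stimulated response elements (ISRE). JAK1 and JAK2 serve interferon gamma and the gp130 receptors for IL-6 and its relatives, where STAT3 is the main factor. STAT5A and STAT5B answer prolactin in the mammary gland, STAT6 answers IL-4 and IL-13, and STAT4 answers IL-12. In breast cancer, STAT3 is best known for its activity in triple-negative tumors.

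RNA-seq was performed on 6 libraries, 3 of LINC00115 knockdown and 3 called WT. According to the labels and the paper, all came from stem-like cells (BCSC) of 1 human triple-negative breast cancer line, MDA-MB-231, made resistant to paclitaxel (PTX). LINC00115 is a long noncoding RNA, and the knockdown was made with short hairpin RNA. The labels number the knockdown libraries sh115-1 to sh115-3. In the paper sh115-1 and sh115-2 are names of different hairpins, and its description of the sequenced knockdown cells names sh115-2. The labels do not say whether the 3 libraries share that hairpin, nor whether libraries of a group came from separate cultures, so the p-values below measure only the spread between these libraries, which may be technical. The labels call the controls only WT, whereas knockdown experiments elsewhere in the paper used a control hairpin.

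Library totals ran from 36979221 to 38799331 counts. Symbols in the table are written as for mouse, although the labels name human cells: 16 of 22989 equal a human symbol as written and 14422 do so apart from case. Of 5777 symbols of the Gm or Rik type, which mouse annotation uses, 276 had at least 100 counts in every library. No row is named LINC00115, so its depletion could not be checked. Such counts on mouse gene names are at odds with the human label, and which of them is right was not tested. The species named here and every direction below rest on the labels. Genes with adjusted p under 0.05 made up 73.4% of the 13497 tested, 36.7% being higher in KD and 36.7% lower. A call alone therefore says little, so the size of each change is given against that of all genes tested. Whether the groups overlap is given below as a description only, since the share of all genes without overlap was not counted.

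Among 15 listed markers of breast cancer cells and stem cells, levels differed widely and do not identify the line. In normalized CPM (counts scaled to a common library total, ± SD, n = 3), Vim was at 3418 ± 49.8 in WT and 3736 ± 79.7 in KD. Cd44 was at 911 ± 45.8 and 879 ± 11.03. The sort used aldehyde dehydrogenase activity, but Aldh1a1 reached only 0.327 ± 0.119 and 1.16 ± 0.158, and Aldh1a3 at most 4 counts in a library. The stem or epithelial markers Sox2, Prom1 and Epcam were near 0. Sox2 had 0 counts in WT and 1, 1 and 4 in KD, and Prom1 had at most 3 and Epcam at most 5 in any library. The epithelial keratins Krt8 (mean 472 CPM in WT and 752 in KD) and Krt18 (129 and 236) were far from 0. Both were called higher in KD. Esr1 (mean 0.698 CPM in WT and 2.56 in KD) and Erbb2 (17.0 and 27.6) were called higher too. The 15 markers of this kind summed to 4923 to 4984 CPM in WT and 5550 to 5686 in KD, mostly Vim. Genes of other cell types also moved with the groups. All 10 lung epithelium markers were above every WT library in every KD library, and their sum was 1.70 to 1.96 CPM in WT and 73.3 to 83.2 in KD. Among these, Scgb1a1, Sftpa1, Sftpb, Sftpc, Sftpd and Nkx2-1 had no count in any WT library. The sum of 10 kidney markers was 9.24 to 9.64 CPM in WT and 23.8 to 28.3 in KD, with 6 genes at 0 in WT. For 15 leukocyte markers it was 72.3 to 86.3 and 145 to 160, 4 of them being higher without overlap and 1 lower. Most of that rise was S100a8 (33.0 ± 1.25 to 95.2 ± 6.33 CPM), and a sum without it, formed after the values were seen, was 39.998 to 54.1 in WT and 56.7 to 61.1 in KD. Cd3e had no count in any library, and Ptprc, which marks leukocytes at large, was at 0.194 ± 0.107 and 0.255 ± 0.0704. For 10 endothelial and fibroblast markers the sum was 174 to 193 in WT and 134 to 136 in KD, and that fall was mostly Pdgfra (177 ± 9.92 to 74.5 ± 1.39). Without it, again a choice made after seeing the values, the other 9 summed to 4.48 to 5.84 in WT and 58.8 to 62.1 in KD, nearly all of the rise being Cdh5 (0.221 ± 0.131 to 57.8 ± 1.45). The part of these genes' source in the member results was not tested, and in bulk RNA fewer cells of a type and less RNA per cell cannot be told apart.

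To show the regulatory DNA of the members that changed most, the 250 bases before the start site of the human genes STAT2 and TYK2 are printed 5′ to 3′ from RefSeq (GRCh38.p14). STAT2 lies on the minus strand at chr12:56360108-56360357 and TYK2 on the minus strand at chr19:10380573-10380822. The third is the upstream stretch of a STAT5A start site, chr17:42287189-42287438 on the plus strand, the only member window in which any of 3 STAT motifs was found, and capitals mark that match.
STAT2: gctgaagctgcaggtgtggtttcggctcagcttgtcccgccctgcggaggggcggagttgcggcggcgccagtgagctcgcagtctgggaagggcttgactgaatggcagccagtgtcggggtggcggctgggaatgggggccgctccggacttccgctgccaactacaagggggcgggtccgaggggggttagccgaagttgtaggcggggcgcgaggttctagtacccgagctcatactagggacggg
TYK2: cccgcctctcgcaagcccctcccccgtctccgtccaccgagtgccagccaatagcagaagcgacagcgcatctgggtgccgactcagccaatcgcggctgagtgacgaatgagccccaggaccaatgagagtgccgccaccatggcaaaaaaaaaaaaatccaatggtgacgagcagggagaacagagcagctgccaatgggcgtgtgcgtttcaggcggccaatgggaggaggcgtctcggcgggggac
STAT5A: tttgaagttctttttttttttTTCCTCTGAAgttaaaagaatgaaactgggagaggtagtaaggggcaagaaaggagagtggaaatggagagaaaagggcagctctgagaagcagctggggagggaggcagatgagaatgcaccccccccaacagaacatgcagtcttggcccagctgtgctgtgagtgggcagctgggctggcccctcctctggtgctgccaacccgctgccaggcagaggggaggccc
Both strands of the 17 RefSeq windows of the 9 genes, each of 300 bases around a start site, were searched. The ISRE core GAAANNGAA was in 0 of 17, and 8.11% of all 35116 windows held it. The gamma-activated site (GAS) TTCNNNGAA was in 0 of 17 against 7.66% of all. The wider form TTCNNNNGAA, linked to STAT6, was in 1 of 17 against 6.44%, starting 229 bases before the STAT5A start site. A match is a run of letters only, and the absence of one says only that these letters are not in the window. As the table's symbols follow mouse, the sequences are those of the human genes of the same name and not a property read from the libraries.

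Among the transcription factors, Stat2 stood apart from the rest. It was at 50.8, 49.2 and 57.4 normalized CPM in WT libraries 1 to 3 and at 224, 232 and 223 in KD libraries 1 to 3. Every KD library held at least 8474 counts of it and no WT library more than 2170, so the groups were far from overlapping. The mean rose from 52.5 ± 4.35 to 226 ± 5.05 CPM (SD, n = 3), a log2 fold change of 2.11 with a standard error (SE) of 0.047 (edgeR quasi-likelihood test, adjusted p = 3.59e-29). A larger change in either direction was seen in 6.61% of the genes tested. Leaving out any 1 library kept it between 2.07 and 2.18 on the log2 scale.

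Stat3, the factor of IL-6 signaling, was at 160, 171 and 162 CPM in WT and 128, 126 and 130 in KD. All KD libraries lay below all WT libraries, and the mean fell by 22.2%, from 164 ± 6.09 to 128 ± 2.10 CPM (log2 fold change -0.36, SE 0.040, adjusted p = 4.97e-10 by edgeR). Stat6, the factor of IL-4 and IL-13, was at 200.5, 203 and 197 CPM in WT and 153, 164 and 153 in KD. Its mean fell by 21.7% (log2 fold change -0.35, SE 0.038, adjusted p = 3.92e-10 by edgeR), without overlap. Changes of this size were common, since 58.3% and 59.3% of the genes tested had a larger one than Stat3 and Stat6.

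The neighbouring genes Stat5a and Stat5b, whose proteins share most of their sequence and both act after prolactin and growth hormone, moved in opposite directions. Stat5a was at 19.7, 22.3 and 22.2 CPM in WT and 18.9, 18.1 and 15.9 in KD. The highest KD library was just under the lowest WT library, so the groups were separate by a small margin. Its mean fell by 17.6%, from 21.4 ± 1.46 to 17.6 ± 1.53 CPM (log2 fold change -0.28, SE 0.087, edgeR adjusted p = 0.00449), and 67.2% of the genes tested changed more. The Stat5a call rested on KD replicate 3, the lowest library: without it the log2 fold change was -0.20 (SE 0.094, edgeR adjusted p = 0.0558). Stat5b was at 49.8, 45.8 and 47.9 CPM in WT and 53.4, 56.1 and 62.1 in KD, with no overlap. Its mean was 19.6% higher, at 57.2 ± 4.43 against 47.8 ± 2.00 CPM (log2 fold change 0.26, SE 0.059, edgeR adjusted p = 0.000197), and 69.4% of the genes tested changed more. Of the 4768 stretches of 50 bases in human STAT5A transcripts, 507 (10.6%) also occur in STAT5B, where they are 7.8% of 6501. Reads from such stretches can be split between the genes or dropped depending on the counting, so the levels of both are uncertain. The stretches are from human transcripts whereas the table's symbols follow mouse, so the size of that uncertainty is not known here. No other pair of members shared such a stretch.

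Read as a share within each library, which does not depend on scaling, Stat5a made up 28.4%, 32.8% and 31.7% of the counts of the pair in WT and 26.1%, 24.4% and 20.4% in KD. The KD libraries were all lower, by 7.29 percentage points on average (30.9 ± 2.28% against 23.7 ± 2.93%). With 3 libraries against 3 the exact two-sided permutation test cannot give less than p = 0.1, which was its value here. Without KD replicate 3 the difference, KD minus WT, was -5.67 percentage points (exact two-sided permutation test, p = 0.2).

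Stat4, the IL-12 factor of lymphocytes, was at the edge of detection. It had 4, 0 and 1 counts in WT libraries 1 to 3 and 9, 6 and 5 in KD libraries 1 to 3. All KD libraries were above all WT libraries, but the gene did not pass the filter on low counts and is the 1 member of 9 that was not tested. In a fit with no filter its log2 fold change was 1.92 with an SE of 1.25 (edgeR adjusted p = 0.212), so that no difference was detectable at this depth.

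**Figure D1:**
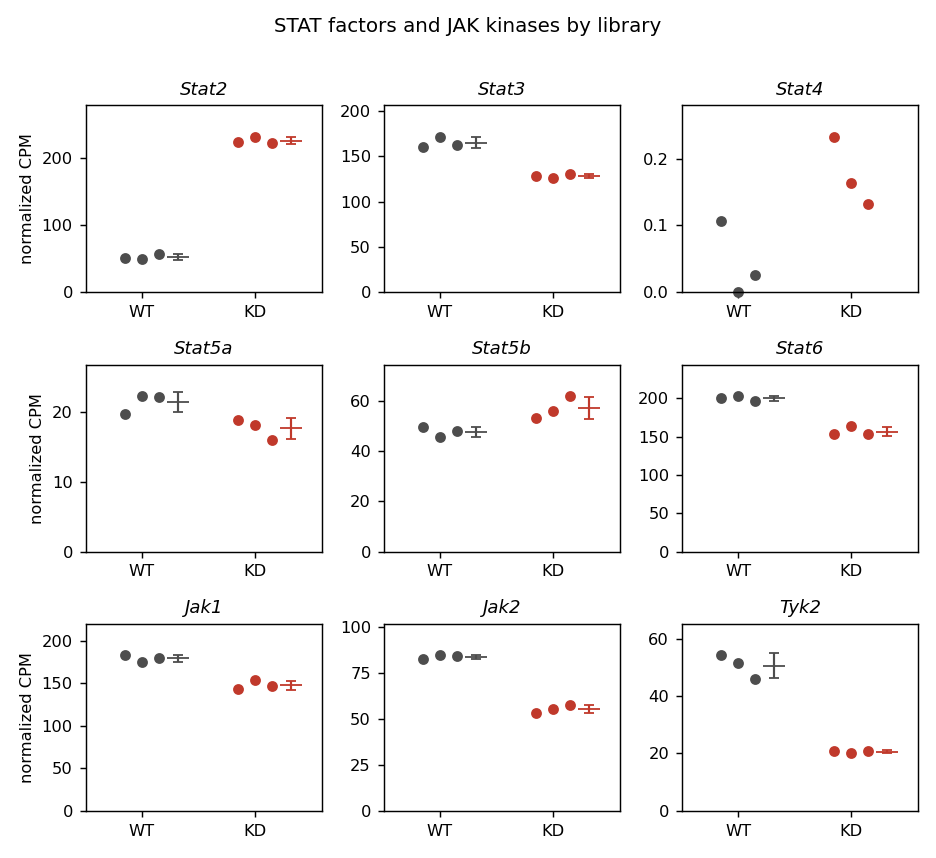
Normalized CPM (linear vertical axes from 0, a scale of its own for each gene) of the 9 members in the 3 WT (gray) and 3 KD (red) libraries; each point is a library, and the bars beside the points of the 8 tested genes are mean ± SD. In each panel the WT and KD points do not overlap, with the widest gap for Stat2 (52.5 against 226) and a narrow one for Stat5a (21.4 against 17.6). The share of all genes without overlap was not counted.

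All 3 member kinases were lower in KD, and Tyk2 fell by the largest amount of them. The fourth JAK, Jak3, is no member and was not called: it was at 14.5 ± 2.42 CPM in WT and 12.4 ± 1.69 in KD, with overlapping groups (log2 fold change -0.22, SE 0.114, edgeR adjusted p = 0.0785). Tyk2, the partner of JAK1 on the type I interferon receptor, was at 54.3, 51.6 and 46.0 CPM in WT and at 21.0, 20.05 and 20.8 in KD. The 3 KD libraries lay close together and far below the lowest WT library. The mean fell by 59.3%, from 50.6 ± 4.22 to 20.6 ± 0.484 CPM (log2 fold change -1.30, SE 0.069, edgeR adjusted p = 3.66e-18), and 14.6% of the genes tested changed more.

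Jak2, which serves the receptors for growth hormone, erythropoietin and interferon gamma, was at 82.4, 84.8 and 84.1 CPM in WT and 53.2, 55.5 and 57.8 in KD. Its mean fell by 33.7%, from 83.8 ± 1.23 to 55.5 ± 2.35 CPM (log2 fold change -0.59, SE 0.049, edgeR adjusted p = 6.74e-13), with the groups well apart and 39.5% of the genes tested changing more. Jak1, used by the interferon, gp130 and common gamma chain receptors, was at 183, 175 and 179 CPM in WT and 143, 153 and 147 in KD. It also separated the groups, and its mean fell by 17.5%, from 179 ± 3.98 to 148 ± 5.17 CPM (log2 fold change -0.28, SE 0.039, edgeR adjusted p = 8.5e-08). A larger change than that of Jak1 was seen in 67.4% of the genes tested.

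Read as a share of the joint counts of Jak1 and Jak2, Jak2 was lower in every KD library. It made up 31.0%, 32.6% and 31.9% of them in WT and 27.1%, 26.6% and 28.3% in KD. The mean share was 4.55 percentage points lower in KD (31.9 ± 0.792% against 27.3 ± 0.854%), without overlap, at the smallest value the exact two-sided permutation test allows (p = 0.1).

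**Figure D2:**
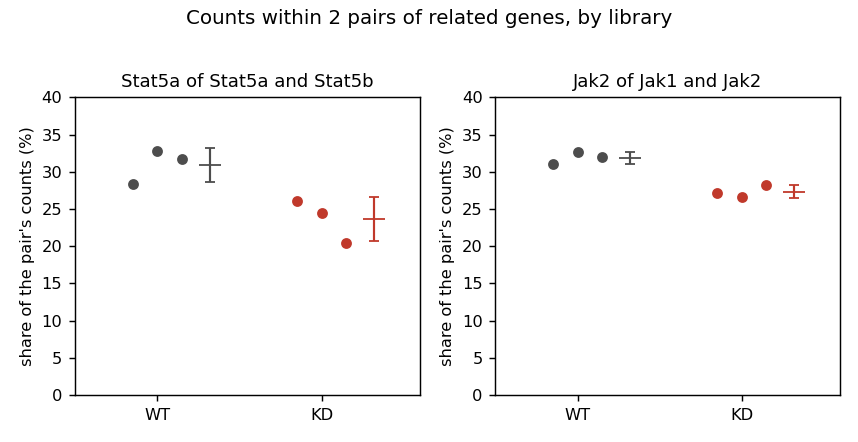
Share in percent (vertical axis from 0) of Stat5a in the counts of Stat5a and Stat5b (left) and of Jak2 in those of Jak1 and Jak2 (right), by library; bars are mean ± SD of 3 WT (gray) or 3 KD (red) libraries. Every KD share lies below every WT share, 23.7 against 30.9% on average for Stat5a and 27.3 against 31.9% for Jak2.

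Counted together at the adjusted p threshold of 0.05, KD was higher for 2 of the 8 tested members and lower for 6. Over all genes tested, 36.7% were called higher and 36.7% lower. With a fold change over 2 as well, Stat2 was the 1 member called higher and Tyk2 the 1 called lower, where 10.2% of all genes tested were called higher and 9.98% lower by that rule. A count of 2 in 8 is too small to be read against that background. By role, the 5 tested STAT genes split into 2 higher and 3 lower, with a median log2 fold change of -0.28, and the 3 JAK genes into 0 higher and 3 lower, with a median of -0.59. Over all genes tested the median was -0.0061.

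**Figure D3:**
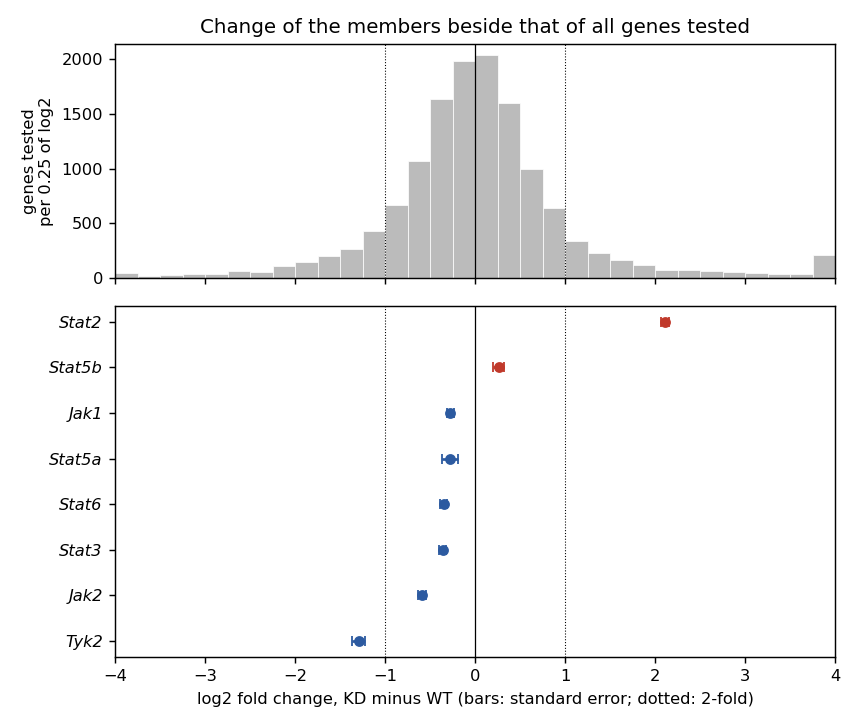
Upper panel, histogram of the log2 fold change (KD minus WT) of the 13497 genes tested in bins of 0.25, with genes beyond 4 in either direction placed in the end bins; lower panel, the 8 tested members with SE. Stat2 (2.11) and Tyk2 (-1.30) lie outside the dotted lines that mark a 2-fold change, and the other 6 lie between -0.59 and 0.26.

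The surrounding pathway was described through lists of ligands, receptors, inhibitors, nuclear factors and known target genes. Of 147 listed genes other than the members, 104 were tested, with a median log2 fold change of 0.21. Of these, 59 (56.7%) were higher, 35 (33.7%) lower and 10 not called. The list of STAT2 and ISGF3 targets holds 16 of the genes called higher. Over all genes tested 36.7% were called higher and 36.7% lower, which is the background for each list below. Some genes stand in more than 1 list.

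Ligands went both ways, with 6 of 13 tested genes higher and 6 lower (median -0.13). Ifnb1, the type I interferon of most cell types, rose from 1, 5 and 1 counts in WT to 40, 66 and 87 in KD (log2 fold change 4.71, SE 0.603, edgeR adjusted p = 1.56e-08). With so few counts in WT the size of its fold is uncertain, but the groups did not overlap. Il15, which drives natural killer and memory T cells through JAK1, rose from 1.83 ± 0.282 to 5.16 ± 0.640 CPM (log2 fold change 1.495). The gp130 ligands Il11 (-1.23) and Ctf1 (-1.40) and the platelet hormone Thpo (-1.51) fell on the log2 scale, all from WT means of at most 11.9 CPM.

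In the interferon receptor list, 2 of 6 tested genes rose and 3 fell (median -0.21). Irf9, the DNA-binding partner of STAT2 in ISGF3, was at 45.6, 48.6 and 53.9 CPM in WT and 100, 104 and 99.8 in KD (log2 fold change 1.04, SE 0.053, edgeR adjusted p = 1.28e-18), so both named ISGF3 subunits rose. The receptor chains themselves differed: Ifnar1, which binds TYK2, fell from 93.3 ± 2.64 to 64.2 ± 2.93 CPM (-0.54), and Ifnar2, which binds JAK1, rose from 38.1 ± 1.201 to 45.9 ± 2.13 (0.27). Both chains of the interferon gamma receptor fell, Ifngr2 from 65.4 ± 5.26 to 37.6 ± 1.57 CPM (-0.80) and Ifngr1 from 39.9 ± 1.66 to 32.5 ± 1.48 (-0.30). Ifnlr1, of the interferon lambda receptor, had 0 counts in WT and 1, 2 and 3 in KD and was not tested.

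Of the 7 tested gp130 family receptors, 4 rose and 2 fell (median 0.22). Il6st, which encodes gp130 itself, rose from 346 ± 16.7 to 402 ± 2.60 CPM (log2 fold change 0.22), and Il6ra, its partner for IL-6, from 44.1 ± 0.461 to 58.4 ± 3.39 (0.40). Il11ra1 was also higher (0.62). The receptors for LIF and leptin fell, Lifr from 1.93 ± 0.269 to 0.328 ± 0.128 CPM (-2.55) and Lepr from 1.31 ± 0.160 to 0.176 ± 0.0517 (-2.87), both being low throughout.

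Other receptors that signal through JAKs had 7 of 12 tested genes higher and 2 lower (median 0.17). Il15ra, which presents IL-15, was at 8.25, 6.46 and 6.25 CPM in WT and 29.1, 33.6 and 29.8 in KD (log2 fold change 2.14, SE 0.0998, edgeR adjusted p = 9.08e-20). The common gamma chain Il2rg (2.70), the thymic stromal lymphopoietin receptor Crlf2 (1.17), Il7r (1.08) and Il20rb (1.02) also rose, and Crlf2 alone of these 4 exceeded 3 CPM. As some of these receptors are known from leukocytes, the leukocyte markers stand beside them. Of 6 tested markers, 4 were higher and 2 not called. S100a8 rose as given above. Lyz2 (0.795 ± 0.626 to 6.58 ± 0.199 CPM), Cd74 (0.928 ± 0.254 to 3.27 ± 0.708) and S100a9 (0.0176 ± 0.0306 to 1.47 ± 0.332) rose too. Cd68 was not called (42.8 ± 7.38 and 47.2 ± 2.25 CPM), and Ptprc stayed near 0 and was not tested. The part of leukocyte RNA in these receptors was not tested.

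**Figure D4:**
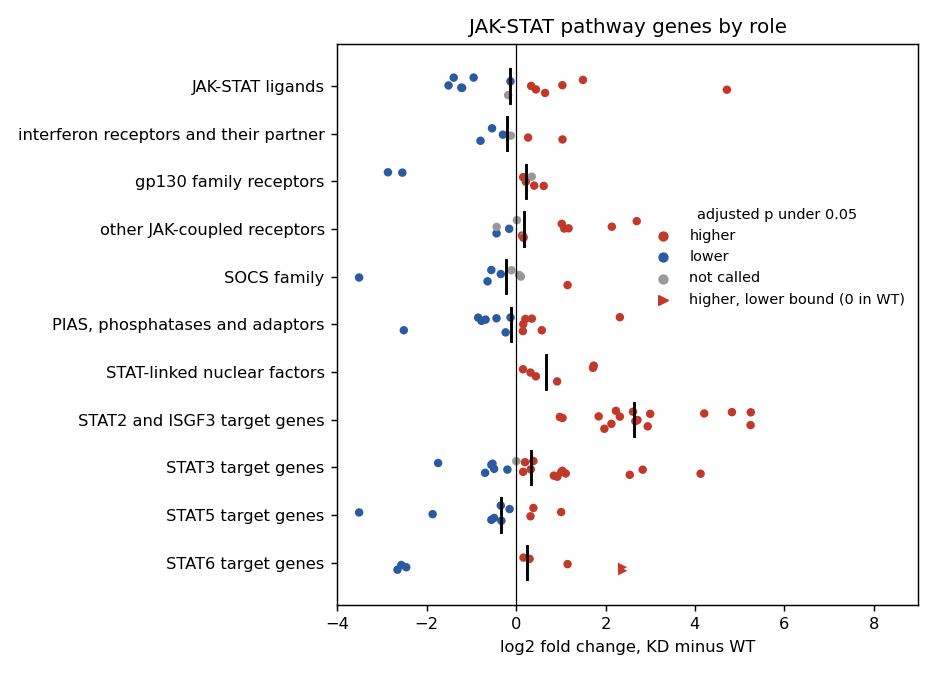
Log2 fold change (horizontal axis, KD minus WT) of the tested genes of each role list, 1 point per gene, colored red (higher) or blue (lower) where the adjusted p was under 0.05 and gray where not called; triangles are lower bounds for genes with no count in WT, and vertical bars are list medians. The 16 ISGF3 target genes all lie to the right (median 2.64), and the 6 nuclear factors do too (0.68), whereas each other list holds points on both sides.

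The SOCS family, which cytokines induce and which then blocks JAKs and receptors, had 1 of 8 genes higher and 4 lower (median -0.22). Socs1, an inhibitor of JAK1, JAK2 and TYK2, rose from 11.1 ± 0.296 to 24.7 ± 1.58 CPM (log2 fold change 1.15, SE 0.088, edgeR adjusted p = 7.36e-14). Socs3, the inhibitor at gp130, fell from 94.3 ± 2.47 to 64.2 ± 4.94 CPM (-0.55), and Socs5 from 136 ± 6.88 to 87.5 ± 2.70 (-0.64). Cish, a classic STAT5 target, fell from 4.97 ± 0.667 to 0.433 ± 0.240 CPM (-3.51, SE 0.314, edgeR adjusted p = 3.99e-12). Socs2, another STAT5 target, fell by 0.34 on the log2 scale with overlapping groups.

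Among PIAS proteins, phosphatases and adaptors, 6 of 13 tested genes rose and 7 fell (median -0.12). Usp18, which blocks JAK1 at Ifnar2, was at 56.5, 59.2 and 62.3 CPM in WT and 296, 297 and 296 in KD (log2 fold change 2.32, SE 0.041, edgeR adjusted p = 4.22e-32). Ptpn6, which encodes the phosphatase SHP-1, went the other way, from 72.4, 68.1 and 68.4 CPM to 11.4, 11.9 and 13.3 (-2.51, SE 0.068, edgeR adjusted p = 1.29e-26). The STAT-binding E3 SUMO ligases Pias1 (-0.68) and Pias4 (-0.77) and the JAK-binding adaptor Stam (-0.85) fell.

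The list of nuclear factors that act with STATs, or in the case of Bcl6 against them, had 6 genes, and all 6 were higher (median 0.68). Nmi, which binds STAT proteins and is itself induced by interferon, rose from 26.9 ± 2.19 to 89.8 ± 6.44 CPM (log2 fold change 1.74). The acetyltransferase gene Crebbp rose from 39.7 ± 2.14 to 75.0 ± 4.72 CPM (0.92), and Ncoa1 from 7.47 ± 1.18 to 24.6 ± 1.55 (1.72). Cebpb (0.44) and the repressor Bcl6 (0.32) rose by less than 2-fold.

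The targets of STAT2 and ISGF3 were higher in KD, as Stat2 was. Of the 16 analysed here, 16 were higher and 15 of these by over 2-fold, with a median log2 fold change of 2.64, where the median over all genes tested was -0.0061. Rsad2, the antiviral protein viperin, was at 9.16, 9.85 and 9.29 CPM in WT and 355, 375 and 347 in KD (5.25, SE 0.052, edgeR adjusted p = 2.06e-39). Cmpk2 rose from 11.8 ± 0.612 to 446 ± 8.07 CPM (5.24), Ifit3 from 6.07 ± 0.124 to 172 ± 6.18 (4.83), Oasl1 from 18.5 ± 0.885 to 342 ± 4.76 (4.21) and Ifi44 from 76.3 ± 3.59 to 610 ± 22.1 (3.00). The gene below 2-fold was Ddx58, at 182 ± 6.74 and 359 ± 3.80 CPM (0.98). Irf9 and Usp18 are in this list too, and it was drawn up with earlier results of these data known, so its direction is a description.

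**Figure D5:**
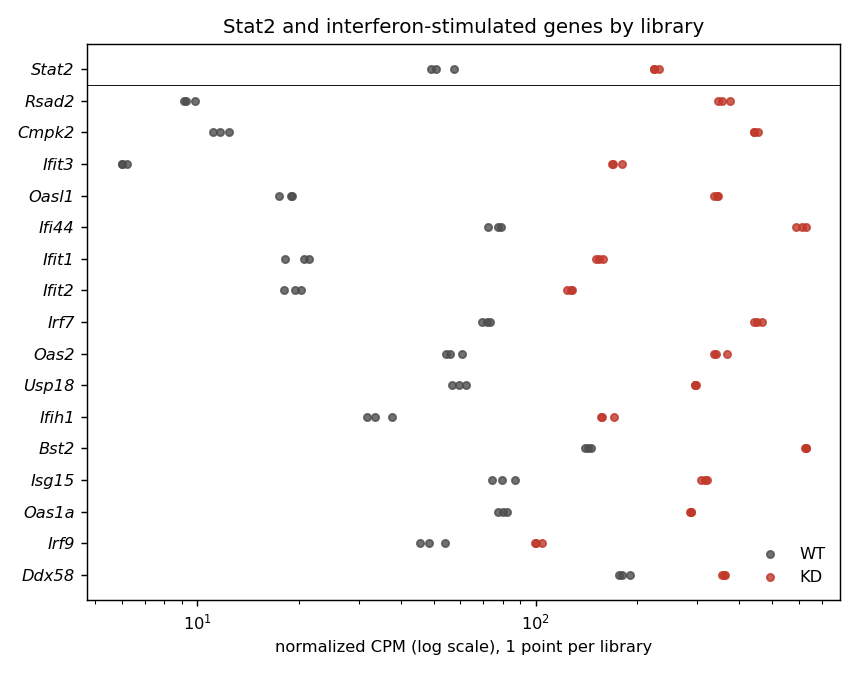
Normalized CPM (horizontal axis, log scale) of Stat2 and the 16 ISGF3 target genes, 1 point per library, WT gray and KD red. In each row the KD points lie to the right of the WT points, from Ddx58 (182 against 359) to Rsad2 (9.43 against 359), and replicates lie close together.

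Targets of STAT3, STAT5 and STAT6 went both ways. For STAT3, 12 of 19 tested targets were higher and 6 lower (median 0.33), although Stat3 itself fell. The acute-phase genes Hp (4.13), Saa3 (2.54) and Lcn2 (1.11) and the adhesion gene Icam1 (2.83) rose on the log2 scale, Lcn2 from 1081 ± 27.9 to 2333 ± 102 CPM. Vegfa, the main angiogenic factor, fell from 584, 511 and 526 CPM to 167, 162 and 155 (-1.74, SE 0.041, edgeR adjusted p = 1.93e-28).

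For STAT5, whose genes Stat5a and Stat5b moved in opposite directions, 3 of 10 tested targets were higher and 7 lower (median -0.34). Beside Cish, the survival kinases Pim2 fell from 29.1 ± 2.19 to 7.98 ± 0.1002 CPM (-1.87) and Pim1 from 31.5 ± 1.12 to 22.4 ± 0.446 (-0.49), and Socs3 fell as given above. Bcl2l1, which encodes BCL-XL, rose from 136 ± 4.46 to 274 ± 6.25 CPM (1.01), so the list did not move as a whole.

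For STAT6, 5 of 8 tested targets were higher and 3 lower (median 0.23, also with the 2 genes at 0 in WT set to their lower bound). Il4ra, the IL-4 receptor chain and a STAT6 target, rose from 90.8 ± 4.16 to 102 ± 2.19 CPM (0.16), Klf4 rose by 0.30 and Socs1 by 1.15 on the log2 scale. The macrophage genes Mrc1 (7.39 ± 1.44 to 1.17 ± 0.383 CPM) and Alox15 (2.98 ± 0.255 to 0.540 ± 0.122 CPM) fell. Ccl22 and Chil3 had no count in WT and at least 13 in each KD library, or at least 5.224-fold and 5.202-fold more against a floor of 3 counts per library.

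The 5 genes whose level followed that of Stat2 most closely over the 6 libraries were Slfn4, Irgm2, Sp100, Mgat2 and Xaf1, each with a Pearson correlation r of log2(CPM + 0.5) that rounds to 1.00. They rose by 6.13, 2.59, 1.80, 1.36 and 1.74 on the log2 scale. Such values are common where 2 groups of libraries differ, as 1981 of 13497 genes had an absolute r over 0.99 with Stat2 and 7840 over 0.9.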

How the data were processed

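RNA of 6 libraries (3 KD, 3 WT) was sequenced by the submitters. The deposited table holds raw read counts per gene that the authors made from aligned reads; their processing notes name HISAT2, featureCounts and DESeq2 with hg38, whereas the paper's methods name an older human build. The annotation, the strand setting and the source of the mouse-style symbols are not given in the sources used here. Extraction and library kits differ between the labels and the paper's methods.

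Counts were filtered (filterByExpr, minimum count 10, minimum total 15), scaled by TMM (factors 0.990 to 1.01) and tested with edgeR 4.0.16 in R 4.3.3 (quasi-likelihood, group as the single term). P-values were adjusted by Benjamini-Hochberg over 13497 genes. The thresholds were an adjusted p under 0.05 and, separately, a fold change over 2. SE is the absolute log2 fold change over the square root of F. Totals of 36979221 to 38799331 counts put 3 counts at 0.0776 to 0.0817 CPM, which covers counting error only. Replicates differed by more than sampling noise (3.94 to 7.96 chi-square units for each degree of freedom), so none was merged. The scripts were tested on simulated data. Members and gene lists were chosen with earlier results of these data known. From each list, the text names up to 5 called genes with the largest change and a mean of at least 1 CPM in a group, all members, and the 5 genes most like the member that changed most; Ddx58, Ccl22, Chil3, Ifnlr1 and Jak3 were named after their values were seen. Alternatives were other filters, scalings, DESeq2 1.42.0, a robust dispersion, a replicate block and leaving out each library.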

Additional observations from a re-analysis of the deposited data

How the results depend on the processing

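Each of the 8 tested members was fitted under 14 alternatives. Direction and call held in all of them for 7 members. Stat5a kept its direction, with a log2 fold change of -0.34 to -0.20 when 1 library was left out, and lost its call without KD replicate 3 (adjusted p = 0.0558), where 5 members were called lower. With no fold-change threshold 8 members were called in place of 2. Replicate numbers did not pair the libraries (correlations of same-numbered deviations 0.0135, -0.0194 and -0.0202), and with a replicate block 2 members were higher, 6 lower, and 9838 genes were called in all against 9912. Pathway genes called higher numbered 55 to 64 and lower 29 to 36 over the alternatives. No scaling moved the median of all genes by over 0.1. At this depth a difference in Stat4 was not detectable.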
